A study of Mus musculus with 44 samples.

Results

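The collagen chains examined here were the 44 genes, of 46831 in the count table, whose symbol consists of Col, a type number, the letter a and a chain number. Membership was set by symbol alone, although the family was chosen with earlier results of these data known. Each of the chains had reads in at least 1 library. Skeletal cells were sorted from the lower limbs of C57Bl6 mice on postnatal day 3, and their RNA was profiled by SLIM-seq, an m6A immunoprecipitation (IP) followed by sequencing that was built for small amounts of RNA, next to RNA-seq of the same sorts (input). The study asked how m6A marks mRNA along the skeletal stem cell hierarchy and what deletion of the methyltransferase Mettl3 changes. The table held 44 libraries, 2 replicates of each of 22 conditions.

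The 8 WT populations were skeletal stem cells (SSC), pre-BCSP (pBCSP) and bone cartilage stromal progenitors (BCSP), called stem and progenitor here, and the 5 downstream populations PCP (pro-chondrogenic progenitors), THY, BLSP (B-cell lymphocyte stromal progenitors), 6C3 and HEC. The study names its Mettl3 fl/fl control mice WT where it introduces the deletion. Whether the WT mice of all 8 populations were fl/fl is not given in the sources used here. The mice labelled Mettl3cko, sampled for SSC, pBCSP and BCSP, were Mettl3 fl/fl with Col2a1-Cre. Cre was thus driven by the promoter of a collagen chain that is itself a member of the family, so a cell carries the deletion only if it or a precursor has used that promoter. All mice were untreated and were taken regardless of sex, the batch label was the same for every library, and cells carrying CD45, Ter119 or Tie2 were gated out of every population. The labels give the genotype in the titles, while their genotype field reads wild type throughout, and the text therefore speaks of libraries labelled Mettl3cko. The study calls replicates independent experiments, but which animals a library came from is not given in the sources used here. The p-values thus measure the spread between replicates of the same condition, which may in part be technical.

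Collagens are the proteins of 3 polypeptide chains wound into a triple helix, which is possible because glycine recurs at a fixed interval along each chain, very often followed by proline. Fibrillar chains build the cross-striated fibrils of bone, tendon and cartilage, fibril-associated chains sit on the fibril surface, and network chains form sheets in basement membranes and around cells. In the growth plate, cartilage fibrils are made of collagens II, IX and XI, collagen X marks hypertrophic chondrocytes, and collagen I with a little collagen V makes the fibrils of bone and of fibrous tissue. m6A is methylated adenosine in RNA, placed by the Mettl3 complex mostly within short motifs in which GGAC is followed by A, C or U.

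The glycine-proline repeat meets that motif in the genetic code, because the codons GGA and CCN read one after the other spell GGACC. For 7 chains on which the results below turn, the stretch of 27 coding bases with the most copies of GGACC, beginning on a glycine codon, is shown for that reason, with GGACC in capitals (GRCm38, GENCODE annotation, coding strand, 5′ to 3′).
Col1a1, chr11:94940572-94940598, plus strand, exon 10 of 51: ggtgagcgtGGACCtcctGGACCtcag
Col1a2, chr6:4512406-4515227, plus strand, exons 6-7 of 52, joined across the intron: GGACCaatgggtttaatgGGACCcaga
Col2a1, chr15:97998699-97998725, minus strand, exon 5 of 54: GGACCcagaGGACCtcctggccctcag
Col3a1, chr1:45344952-45344978, plus strand, exon 47 of 51: GGACCagttGGACCacatGGACCtcct
Col10a1, chr10:34395054-34395080, plus strand, exon 3 of 3: gggaatatgGGACCccaaGGACCtaaa
Col9a2, chr4:121044010-121044292, plus strand, exons 7-8 of 32, joined across the intron: GGACCtcccGGACCccctGGACCtgtt
Col12a1, chr9:79612405-79612431, minus strand, exon 58 of 66: ggcccaccaGGACCaatgGGACCacca
Over the coding sequences of the 44 chains GGACC occurred 1102 times, which is 5.51 per kb, and 934 of these copies (84.8%) began on a codon, so that they read as glycine and proline. In the other 21833 protein-coding genes it occurred 1.42 times per kb and began on a codon in 20.5% of cases. A copy of the motif is a description of the sequence and not a methylated site.

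Input libraries of WT cells held 19795666 to 44046651 counts, and those labelled Mettl3cko 30050178 to 35325482. Levels are given as CPM, counts scaled to the size of the library after TMM, and differences on the log2 scale with their SE. For an average over populations the SE and p-value cover the spread of replicates within each population. They do not cover the spread among the populations averaged. Collagen chains took 11.4% to 22.8% of the counts in the WT input libraries of all 8 populations. In Mettl3cko input, which came from SSC, pBCSP and BCSP alone, they took 8.12% to 13.2%. The ranges thus cover unlike sets of populations and do not compare the genotypes. Log2 CPM of the 2 replicates correlated, across genes, at 0.950 to 0.990 in input. In IP it correlated at 0.913 to 0.966 in WT and at 0.654 (SSC), 0.736 (pBCSP) and 0.756 (BCSP) in Mettl3cko. Mettl3 itself was at 15.3 and 15.5 CPM in WT SSC, 12.1 and 16.1 in WT pBCSP, while WT BCSP had 18 and 19.7. In the libraries labelled Mettl3cko it was at 16.7 and 18.4, 22.3 and 22.8, and 16.2 and 17.7 CPM in the same order. It lay above WT in SSC and pBCSP and slightly below it in BCSP, so it does not check the labels, and counts over a whole gene cannot show the loss of single exons. Thy1 was at 17.2 to 34.2 CPM in PCP, THY and BLSP against at most 0.439 in the other populations. Enpep, which encodes the 6C3 antigen, was at 41.1 to 56.6 in 6C3 and HEC against at most 8.61 in the others. The list of 6 sort markers also held Cd200, higher in stem and progenitor than in downstream cells, and Itgav, which was lower. Eng and Tek, also on it, did not pass in that comparison. All 6 differed between the 8 WT populations at an adjusted p under 0.05 by edgeR.

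Collagen mRNA differed widely between the 8 WT populations. Stem and progenitor cells had more mRNA of the cartilage chains II, IX, XI, XXVII and X, and less mRNA of the chains of collagens I, III, V, VI, XIV, XV and XVIII, than the 5 downstream populations. In the comparison across all 8 populations 39 of the 44 chains passed edgeR's quasi-likelihood test at an adjusted p under 0.05, against 40.3% of all genes tested. In the comparison of the 3 stem and progenitor with the 5 downstream populations 9 chains were higher (23.3% of all genes were) and 27 lower (28.4% of all genes were), and 8 did not pass. The median log2 difference of the chains was -1.11, next to -0.11 over all genes. In bulk libraries fewer cells of a type and less RNA per cell cannot be told apart. Markers of some other cell types moved with the same division. Tendon and fibroblast markers summed to 106 to 266 CPM in stem and progenitor libraries and to 561 to 2764 in downstream libraries (5 of 6 lower, Mkx not called). The 7 red cell markers summed to 0.789 to 5.83 against 19.1 to 149 (7 of 7 lower). Blood cell markers went both ways (2 of 9 higher, 3 lower), as did muscle markers (1 of 6 higher, 3 lower). Of the endothelial markers 1 of 6 was lower, and of the osteoclast markers 3 of 5. Their part in the collagen results was not tested.

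Col2a1, the only chain of the homotrimer that builds cartilage fibrils, was at 84500 and 69148 CPM in SSC, 71330 and 74984 in pBCSP, while BCSP had 69765 and 83129. Downstream it was at 13082 and 15958 CPM in PCP, 4483 and 4077 in THY, 10596 and 12577 in BLSP, 34244 and 72615 in 6C3 and 65445 and 84334 in HEC. The stem and progenitor libraries lay in a narrow band, PCP, THY and BLSP lay far below it, and HEC and 1 of the 6C3 libraries reached into it. The average difference was 1.94 ± 0.14 on the log2 scale (SE, 16 libraries, adjusted p = 2e-08 by edgeR). Taken pairwise, SSC exceeded THY by 4.15, BLSP by 2.71 and PCP by 2.38 on the log2 scale, while the differences to 6C3 (0.54, adjusted p = 0.176) and HEC (0.06, adjusted p = 0.919) did not pass. The 7 chondrocyte markers, Col2a1 among them, summed to 76014 to 95733 CPM in HEC and to 83762 to 101295 in SSC. In PCP, the population named for its chondrogenic fate, they summed to 16470 to 20112. Col2a1 made up most of each of these sums, so they largely repeat its values. It was 84500 of 101295 CPM in the first SSC library and 65445 of 76014 in the first HEC library.

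The other cartilage chains followed the same division more sharply. Collagen IX, which decorates the cartilage fibril with 3 different chains, separated the groups for all 3. Col9a2 ranged from 8682 to 11790 CPM in the 6 stem and progenitor libraries (median 11215) and from 235 to 2489 in the 10 downstream libraries (median 901), a log2 difference of 3.54 ± 0.13. Col9a3 ranged from 5965 to 8201 CPM (median 6920) against 197 to 1659 (median 671; 3.35 ± 0.14), and Col9a1 from 6385 to 8510 (median 7301) against 363 to 5731 (median 824; 2.43 ± 0.11). No downstream library reached the lowest stem or progenitor library for any of the 3 chains. Col27a1, a fibrillar chain of the cartilage matrix, was likewise apart, at 237 to 702 CPM against 35.5 to 204 (2.11 ± 0.16). These 4 chains were the ones for which all 6 stem and progenitor libraries lay above all 10 downstream libraries (7.75% of all genes did so). Collagen XI sets the width of the cartilage fibril: Col11a2 was at 1960 to 4012 CPM against 215 to 2158 (2.05 ± 0.15) and Col11a1 at 2735 to 5081 against 715 to 3214 (1.48 ± 0.14), with an overlap that came from HEC for Col11a1 and from HEC and 1 of the 6C3 libraries for Col11a2.

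Col10a1, the chain of the hypertrophic network collagen, had the largest difference between populations among the 9 higher chains and split the stem and progenitor populations. It was at 144 and 168 CPM in SSC, 2.72 and 0.488 in pBCSP, while BCSP had 1012 and 717. Downstream it was at 12.6 and 9.68 CPM in PCP and at most 1.48 in THY, BLSP, 6C3 and HEC. BCSP and SSC stood above every other population, and pBCSP lay in the range of the downstream libraries. The average log2 difference to the downstream populations was 5.60 ± 0.42 (adjusted p = 2.87e-08 by edgeR), and it was 6.28 without the first HEC library and 6.19 without the first THY library, which held 36 and 28 counts of it. Ihh, Pth1r and Mef2c, the other 3 hypertrophic markers, were also higher in stem and progenitor cells on average. In pBCSP only Ihh lay above the downstream libraries (32.9 and 40.3 CPM against at most 2.77), while Mef2c (43.8 and 41.4 CPM against 31.8 to 86.7) and Pth1r (25 and 21.7 against 13.1 to 57.3) lay within their range. Col10a1 overlaps Nt5dc1 by 18 exonic bases on the opposite strand.

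Col1a1, which supplies 2 of the 3 chains of collagen I, was at 5576 and 4129 CPM in SSC, 11033 and 10991 in pBCSP, while BCSP had 6294 and 7003. Downstream it was at 95087 and 87104 CPM in PCP, 66410 and 86576 in THY, 65886 and 75602 in BLSP, 146307 and 127777 in 6C3 and 85190 and 87968 in HEC. Every downstream library held several times the Col1a1 mRNA of any stem or progenitor library, with a log2 difference of -3.66 ± 0.12 (adjusted p = 1.18e-11 by edgeR). Its partner Col1a2, the other chain of the same helix, ranged from 2958 to 4214 CPM against 9741 to 13818, a smaller difference of -1.62 ± 0.11. Col3a1, of the reticular fibrils of soft tissue, ranged from 1007 to 4170 CPM against 7030 to 24754 (-2.93 ± 0.19). Among the chains of collagen V, which starts collagen I fibrils, Col5a1 was at 72.7 to 194 CPM against 379 to 913 (-2.22 ± 0.20), Col5a2 at 333 to 592 against 1095 to 1765 (-1.78 ± 0.12) and Col5a3 at 1.83 to 11.2 against 43.5 to 278 (-4.20 ± 0.17). All of these were without overlap between the groups. Of the 8 osteoblast markers, by contrast, 6 were higher in stem and progenitor cells (Bglap, Ibsp, Bglap2, Spp1, Sp7 and Alpl), and Col1a1 was the one that was lower. In pBCSP none of these 6 lay above the range of the downstream libraries: Ibsp was at 69.7 and 52.4 CPM in pBCSP, within the 3.03 to 2541 of the downstream libraries, against 837 to 3282 in SSC and BCSP.

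Per length of transcript, the balance of the chains of a helix differed as well. Col1a1 exceeded Col1a2 by 5.64 to 11.8 times in CPM per kb in the 10 downstream libraries (median 7.07) and by 1.19 to 2.66 times in the 6 stem and progenitor libraries (median 1.67), without overlap. The assembled helix holds 2 chains of the first for 1 of the second. Taken per length of all annotated exons the ratios were 11.8 to 24.8 and 2.51 to 5.59, so that their size depended on the transcript length used while the order of the groups did not. Col9a1 relative to Col9a2 was 0.659 to 1.76 downstream and 0.439 to 0.561 in stem and progenitor libraries. Col2a1 relative to Col1a1 was 7.51 to 19.5 in stem and progenitor libraries and 0.0547 to 1.11 downstream.

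**Figure D1:**
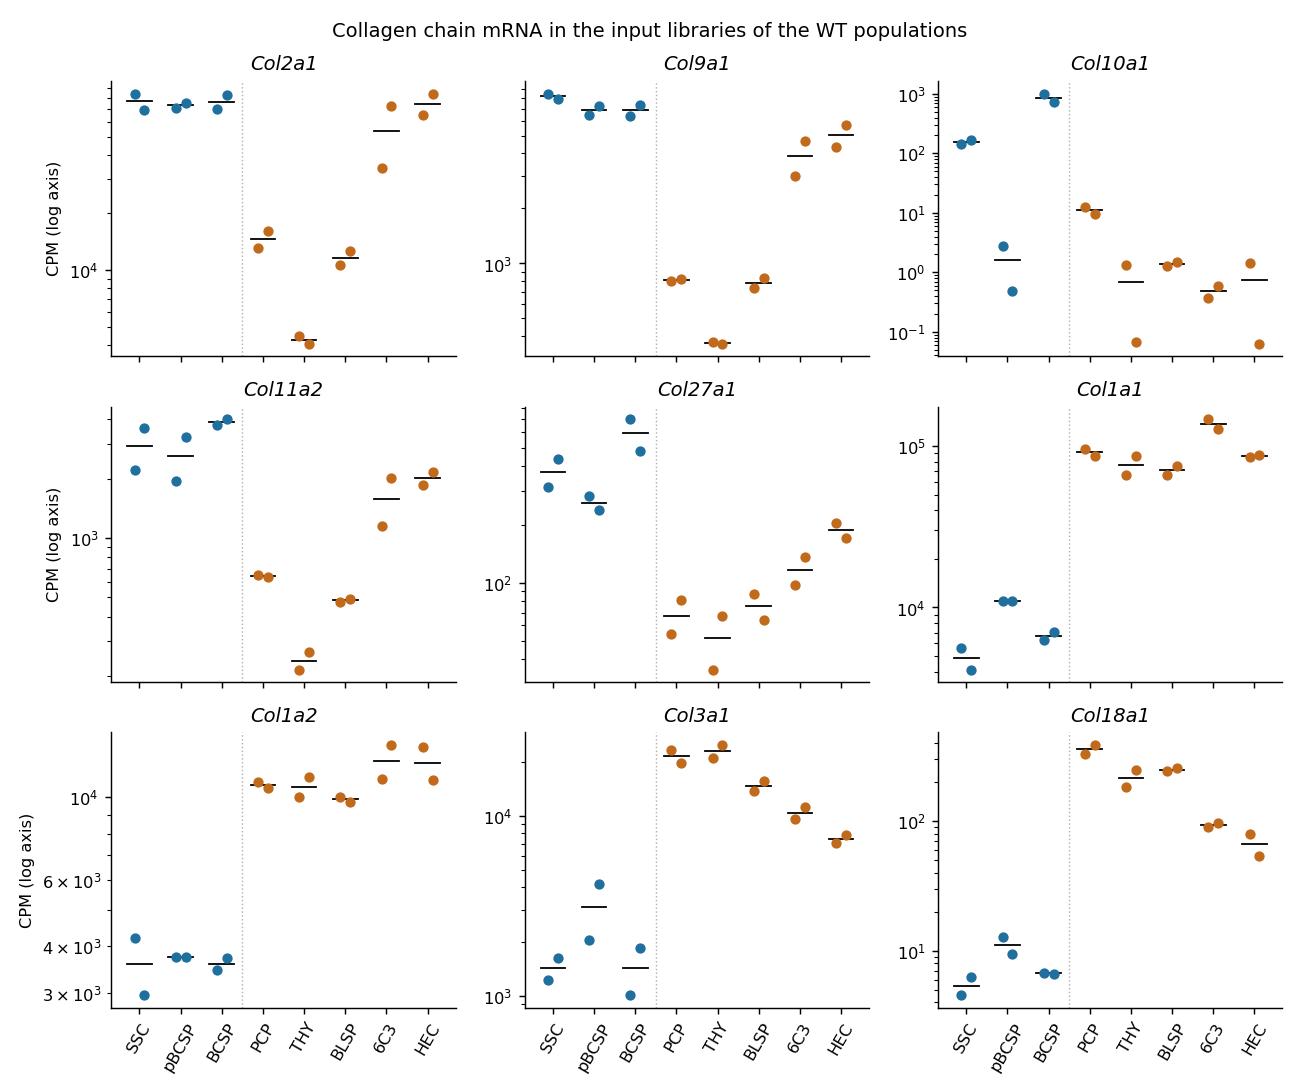
CPM (log axis) of collagen chains in the 16 WT input libraries, 1 point per library and 2 per population. Col1a1 lay between 65886 and 146307 in the downstream libraries and between 4129 and 11033 in stem and progenitor libraries, while Col2a1 was lowest in THY and Col10a1 highest in BCSP.

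Several chains of networks and basement membranes were lower in stem and progenitor cells. Col18a1, the vascular and epithelial basement membrane chain from which endostatin is cut, was at 4.54 to 12.7 CPM in stem and progenitor libraries and 53.5 to 387 downstream (-4.47 ± 0.15, adjusted p = 1.18e-11 by edgeR), and Col15a1, its relative, at 15.8 to 71.3 against 195 to 362 (-2.98 ± 0.16). Both chains of the common basement membrane helix were lower, Col4a1 at 12.2 to 41.3 CPM against 61.3 to 313 (-2.80 ± 0.20) and Col4a2 at 43.8 to 84.8 against 154 to 551 (-2.31 ± 0.17). Col4a1 was at 313 and 268 CPM in PCP and 177 and 278 in THY, the highest levels of the 8 populations. The endothelial markers summed to 85.7 and 86.6 CPM in PCP, against at most 22.8 in every other WT population, and their part in these values was not tested. Col4a1 and Col4a2 overlap by 22 bases on opposite strands. Of the remaining collagen IV chains Col4a6 was higher in stem and progenitor cells (2.34 ± 0.38) at 0.819 to 6.19 CPM, and Col4a3, Col4a4 and Col4a5 did not pass.

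All 6 chains of collagen VI, whose beaded filaments surround cells, were lower. Col6a2 was at 628 to 1058 CPM against 1108 to 2124 (-0.97 ± 0.12), Col6a3 at 204 to 446 against 407 to 1014 (-0.77 ± 0.15) and Col6a1 at 1220 to 3245 against 2377 to 4315 (-0.65 ± 0.14). Col6a4 and Col6a5 had next to no reads in stem and progenitor libraries, where each had a count of 0 in 5 of 6 libraries and 4 or 5 counts in the remaining one, and 2 to 90 and 1 to 45 counts downstream. Among the fibril-associated chains that bind collagen I fibrils, Col14a1 was at 11.9 to 94.5 CPM against 156 to 341 (-2.59 ± 0.22) and Col12a1 at 194 to 443 against 271 to 571 (-0.50 ± 0.14, adjusted p = 0.00838). Col8a1, of the hexagonal network around vessels and in the cornea, was at 52.7 to 102 CPM against 183 to 726 (-2.33 ± 0.17) and Col8a2 at 108 to 484 against 346 to 886 (-1.30 ± 0.14). The first group lay wholly below the second for Col6a2, Col14a1 and Col8a1, and for 13 chains in all (8.76% of all genes did so), while 27 chains overlapped.

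By class, 4 of 11 fibrillar chains were higher and 7 lower, 3 of 9 fibril-associated chains higher and 4 lower, 1 of 3 short-chain network chains higher and 2 lower, and 1 of 6 basement membrane chains higher and 2 lower. The 6 beaded filament chains, the 2 multiplexins, the anchoring fibril chain Col7a1 and the unclassed Col26a1 and Col28a1 were lower. Of 4 membrane-spanning chains Col13a1 was lower and Col17a1, Col23a1 and Col25a1 did not pass. Among the scarce chains, Col28a1 was highest in BLSP (40.2 and 41.1 CPM), as was Col20a1 (30.6 and 30.8 CPM). In level, 12 chains had a mean of at least 1000 CPM over the WT populations, 13 of 100 to 1000, 4 of 10 to 100 and 15 of under 10.

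**Figure D2:**
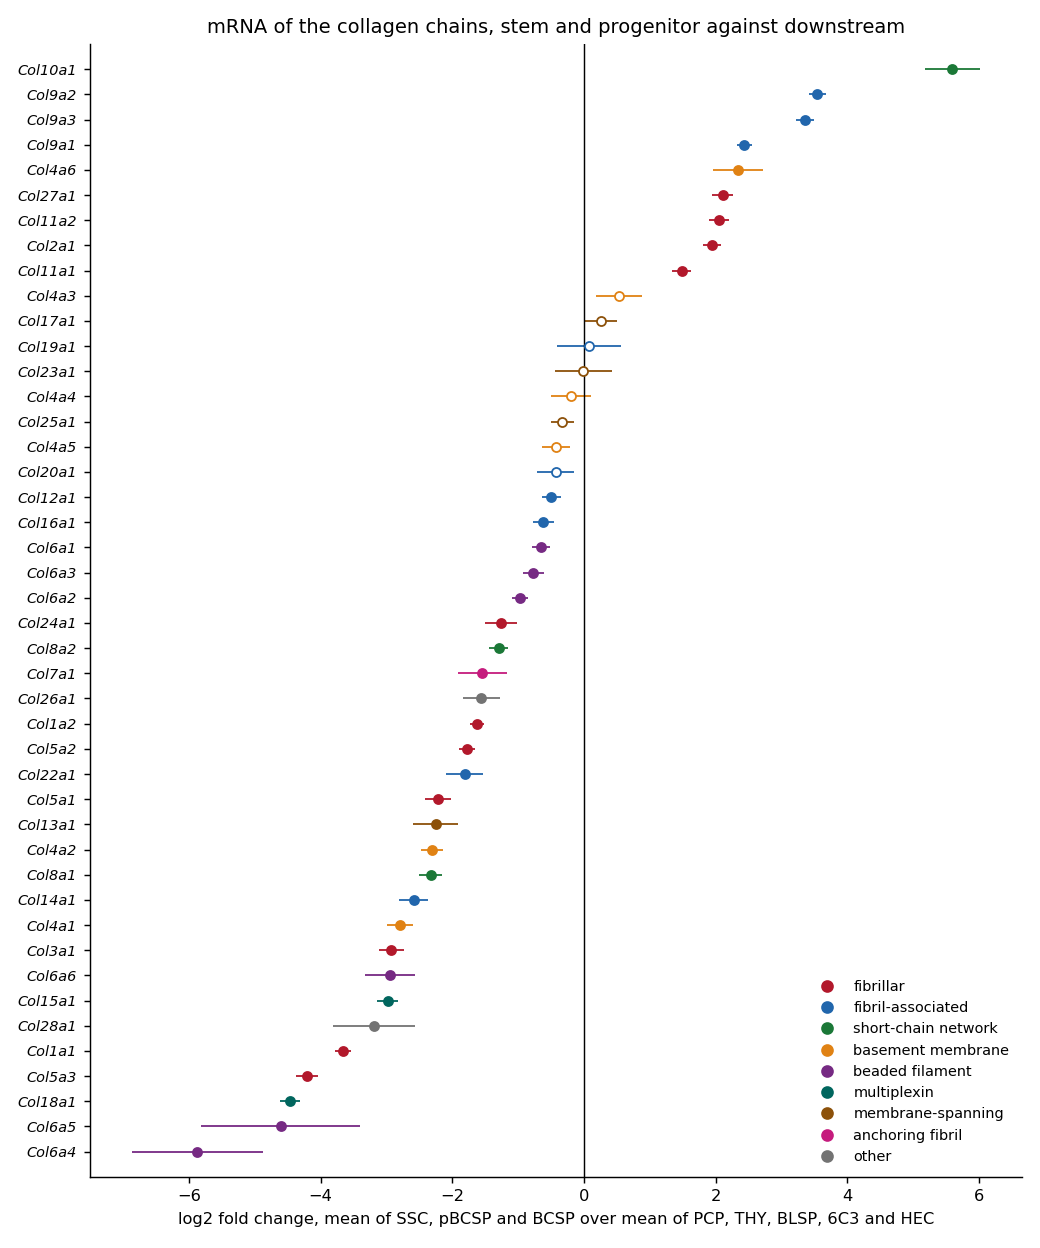
Log2 difference in input between the 3 stem and progenitor and the 5 downstream WT populations for the 44 chains, with the SE as bars, ordered by size. Filled points passed the test and open points did not, and colours mark the classes. Col10a1 is at the top with 5.60, 9 chains are higher and 27 lower, and the wide bars of Col6a4 and Col6a5 rest on next to no reads in stem and progenitor cells.

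Within the stem and progenitor group 1 to 5 chains passed in each pair. Between BCSP and a downstream population 26 (HEC, 22.7% of all genes) to 34 (PCP, 29.9%) did. From SSC to pBCSP 5 of 44 chains passed (0.751% of all genes): Col10a1 was higher in SSC by 6.63 ± 0.87 on the log2 scale (adjusted p = 0.000981 by edgeR), and Col1a1 (-1.18), Col15a1 (-1.58), Col5a3 (-2.27) and Col6a6 (-3.81) were lower in SSC. From pBCSP to BCSP 3 passed (1.68% of all genes), Col10a1 being lower in pBCSP (-9.11 ± 0.96) and Col15a1 (1.66) and Col8a2 (1.48) higher in it. Between SSC and BCSP Col5a3 alone passed (-1.90, adjusted p = 0.0154; 0.446% of all genes). Downstream, 0 chains passed between PCP and BLSP (0.17% of all genes) and 0 between 6C3 and HEC (0.01% of all genes), whereas 20 passed between PCP and HEC (8.6%). The 2 differences of Col10a1 and that of Col5a3 between SSC and pBCSP passed without any one library, although for Col10a1 the first was 8.30 without the first and 5.86 without the second pBCSP library, and the second -10.78 and -8.35. The other calls did not: Col1a1 was lost without the second SSC (adjusted p = 0.123) or second pBCSP library (0.0571), Col5a3 between SSC and BCSP without the second SSC library (0.125), and Col8a2 without the first BCSP (0.104) or second pBCSP library (0.12). Col15a1 was lost in the first step without either SSC library (0.0989 and 0.113) or the second pBCSP library (0.0645) and in the second without the first BCSP (0.0794) or second pBCSP library (0.06), and Col6a6 without any library of SSC, pBCSP, THY, BLSP or HEC (0.0568 to 0.255).

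The enzymes that make and cross-link collagen did not move as one group. Of 17 genes that hydroxylate, glycosylate or isomerise the chains, 6 were higher in stem and progenitor cells, among them Colgalt2, a collagen galactosyltransferase (2.88), Plod2, which hydroxylates the lysines of the ends of the chains (0.95), and P3h1, a prolyl 3-hydroxylase (0.67), and 2 were lower, P4ha3 (-1.60) and P3h3 (-0.73). Of 13 genes for propeptide cleavage and cross-linking 8 were lower, among them the procollagen I N-proteinase Adamts2 (-2.78), the C-proteinase enhancer Pcolce (-2.21), lysyl oxidase Lox (-1.95) and the C-proteinase Bmp1 (-1.88), and 4 were higher, among them Pcolce2 (2.72), Loxl4 (1.56) and Loxl3 (1.51). Of 7 genes listed for folding and export 4 were lower. They were Creb3l1, a transcription factor of secretory cells (-1.94), the collagen chaperone Serpinh1 (-0.63), Mia3 and Ctage5. The 2 higher ones were Sparc (1.05) and Tango2 (0.35). Tango2 is not an established gene of collagen export, but it counts among the 7 here and below. Of 7 collagen receptors Itga2 (-2.38), Itga11 (-1.84), Itgb1 (-1.16) and Itga1 (-1.06) were lower and Itga10 (0.64), the cartilage collagen receptor, was higher. Of the 6 lineage factors the cartilage factors Sox5 (1.22), Sox6 (1.05) and Sox9 (0.96) and the osteoblast factors Sp7 (0.78) and Runx2 (0.46) were higher and Scx, of tendon, was lower (-4.10).

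In WT cells the ratio of IP to input, the measure of m6A enrichment in these data, differed widely among the chains. Averaged over the 8 populations 12 of 44 chains were enriched in IP (16.9% of all genes were) and 14 depleted (26% of all genes were) by edgeR at an adjusted p under 0.05. The median log2 ratio of the chains was -0.20, next to -0.03 over all genes. These values are relative to the total of each library, so a ratio below 0 does not mean that a transcript carries no m6A.

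Col12a1, a long fibril-associated chain, was enriched in every replicate. Its log2 ratio ranged from 0.80 to 1.83 over the 16 WT replicates (median 1.30), with a mean of 1.21 ± 0.09. The others near this level were Col10a1 (0.30 to 2.98, mean 1.28 ± 0.30), Col27a1 (0.34 to 1.76, mean 1.13 ± 0.10), Col14a1 (0.74 to 1.77, mean 1.07 ± 0.14) and Col6a3 (0.52 to 1.5, mean 0.91 ± 0.10). In all of these the ratio was above 0 in 16 of 16 replicates, although 4 of the 16 values of Col10a1 rested on fewer than 20 input counts. Col11a1 (0.74), Col1a2 (0.59), Col4a1 (0.57), Col24a1 (0.56), Col5a2 (0.26) and Col4a2 (0.26) were enriched to a smaller degree, and Col23a1 (0.84) passed on far fewer reads. Col23a1 was lost with IP and input paired by replicate (adjusted p = 0.0531) and without the first pBCSP (0.058) or second SSC IP library (0.0585). Col5a2 was lost without the second IP library of 6C3 (0.0647) or HEC (0.0636), and Col4a2 without any one of 8 libraries (0.0506 to 0.109), which were the first SSC and 6C3 and second HEC input and the first PCP and HEC and second BLSP, 6C3 and HEC IP libraries. Col5a1 (0.26, adjusted p = 0.0534) did not pass, and it passed with the pairing (0.28, adjusted p = 0.000576).

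Col9a2 was the most depleted chain. Its log2 ratio ranged from -2.99 to -1.61 over the 16 replicates (median -2.29), with a mean of -2.32 ± 0.09. Col8a2 was close to it, from -2.84 to -1.47 (mean -2.23 ± 0.09), followed by Col9a3 (-1.61 to -0.49, mean -1.27 ± 0.09). In Col9a2, Col8a2, Col9a3, Col9a1, Col6a1 and Col16a1 the ratio was below 0 in every replicate. The chains of 1 helix could thus differ: Col6a1 was at -0.998 and Col6a3 at 0.91, and Col1a1 was at -0.40 ± 0.09 and Col1a2 at 0.59 ± 0.07. Col11a1 was at 0.74 and Col11a2 at -0.48. Col2a1 was depleted at -0.73 ± 0.08 and Col3a1 at -0.998 ± 0.10, and Col17a1 (-1.28) and Col13a1 (-1.20) were depleted on few reads. Without the first SSC IP library these last values were -2.50 and -1.85, and Col13a1 was at -1.80 without the first pBCSP IP library. Col18a1 (-0.92), Col16a1 (-0.94), Col9a1 (-0.66) and Col8a1 (-0.40) made up the rest.

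**Figure D3:**
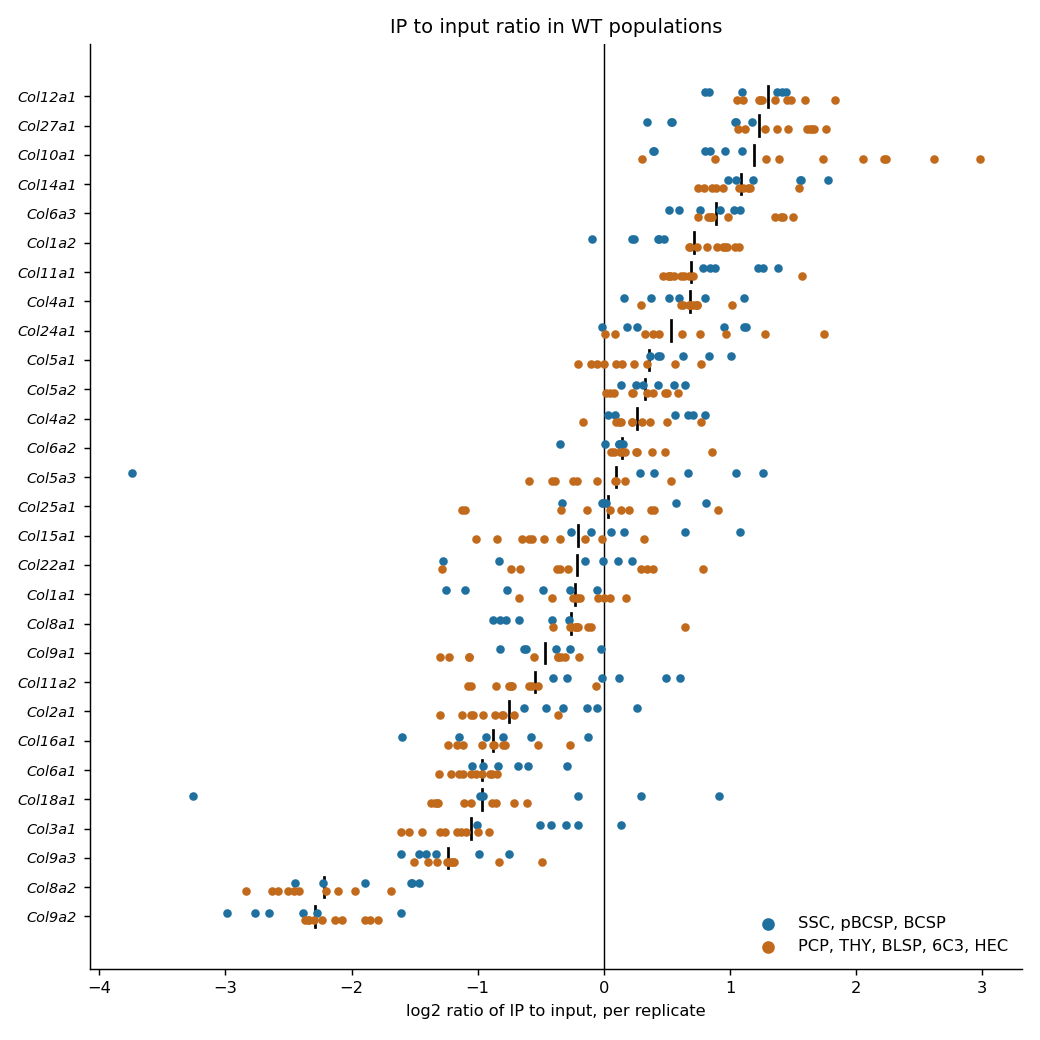
Log2 ratio of IP to input of the collagen chains in the WT replicates, 1 point per replicate, with the median of the 16 as a bar, for the 29 chains of at least 10 CPM, and colours mark stem and progenitor or downstream populations. Col12a1 lies between 0.80 and 1.83 and Col9a2 between -2.99 and -1.61, so that these chains do not meet in any replicate.

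By the threshold of the study (log2 ratio beyond 1 at an unadjusted p under 0.05) within each population, 33 of 336 pairs of a chain and a population were tagged and 41 depleted, over the 8 populations. Tagged chains numbered 6 in BLSP (12.4% of all genes), 5 in SSC (10.4%), 5 in PCP (10.7%), 5 in THY (12.3%), 4 in pBCSP (12%), 4 in 6C3 (14.5%), 3 in HEC (13.5%) and 1 in BCSP (6.67%). Depleted chains numbered 8 in HEC (14.2% of all genes), 8 in PCP (14.6%), 6 in 6C3 (17%), 6 in BLSP (14.8%), 4 in THY (15%), 4 in pBCSP (14.8%), 3 in SSC (14%) and 2 in BCSP (11.7%). Of 40 to 44 chains tested in a population the tagged share was thus near or below that of all genes in each. Col12a1 was tagged in 7 populations, all but BCSP, Col14a1 and Col27a1 in 6, Col6a3 in 5 and Col10a1 and Col23a1 in 3. Col9a2 and Col8a2 were depleted in all 8, Col9a3 and Col3a1 in 5 and Col18a1 in 4. For the test of a difference in ratio between the 8 populations 0 of 44 chains passed at an adjusted p under 0.05 (0.473% of all genes did), and 9 had an unadjusted p under 0.05 (8.02% of all genes did). The study split sorted cells between IP and input, so the libraries of a replicate number form pairs. With these pairs as a block 10 chains passed (3.07% of all genes did), with the lowest adjusted p for Col2a1 (1.99e-07) and Col3a1 (2.02e-07), followed by Col11a2 (0.000226), Col9a1 (0.000334), Col8a2 (0.00104), Col15a1 (0.0014), Col1a1 (0.00214), Col11a1 (0.00934), Col18a1 (0.0132) and Col10a1 (0.0157). Without the pairing 4 passed without the first 6C3 input library, 2 without the second, and 1 each without the first BCSP, the first SSC or the second SSC IP library.

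The log2 ratio of Col2a1 was -0.32 and -0.13 in SSC, -0.46 and -0.63 in pBCSP, while BCSP had 0.27 and -0.05. Downstream it was -0.96 and -1.30 in PCP, -0.71 and -0.87 in THY, -0.80 and -1.04 in BLSP, -0.37 and -1.13 in 6C3 and -0.81 and -1.06 in HEC. The stem and progenitor replicates were the higher ones, with an overlap through 1 of the 6C3 replicates. Col3a1 was at -0.51 and -0.42 in SSC, at -0.30 and -1.01 in pBCSP, at 0.14 and -0.21 in BCSP and from -1.61 to -0.91 downstream, with an overlap through the second pBCSP replicate. Col1a1 went the other way in pBCSP, where it was at -1.10 and -1.25, below the -0.77 to 0.18 of every other replicate. Whether the mean ratio of stem and progenitor cells differed from that of downstream cells was not tested.

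A few features of sequence went with the ratio. The longest coding transcript of the members had a median length of 5626.5 bases and 48 exons of 63 bases, against 2851 bases and 8 exons of 148 bases in 17271 other genes. GGAC followed by A, C or T occurred 8.18 times per kb of member transcript (median), against 3.65 in other genes, and the 3 forms were each present in all 44 members. Across the 29 chains of at least 10 CPM the mean ratio went with transcript length (Spearman's rho 0.57, across genes) and against the density of the motif (-0.42), where the other genes gave -0.00 and -0.23. These points share libraries, and long transcripts gather more counts, so the correlations are given as a description. Of the 7 chains shown above, those with 3 copies of GGACC in the 27 bases (Col3a1 and Col9a2) were depleted. Of those with 2, Col1a1 and Col2a1 were depleted and Col1a2, Col10a1 and Col12a1 enriched. These chains were picked and their stretches held 2 or 3 copies only, so they cannot tell whether the copies go with the ratio. Of the genes that process collagen, 14 of 17 for modification and 8 of 13 for cleavage and cross-linking were depleted, against 2 and 1 enriched, while 3 of 7 for folding and export, 4 of 7 receptors and 2 of 6 lineage factors were enriched and 3, 3 and 3 depleted.

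Between the libraries labelled Mettl3cko and WT, few collagen chains passed the test for a difference in mRNA. Averaged over SSC, pBCSP and BCSP 1 of the 42 chains tested was higher (3.75% of all genes were) and 0 lower (2.71% of all genes were) by edgeR at an adjusted p under 0.05. At an unadjusted p under 0.05 there were 3 higher (10.7% of all genes) and 6 lower (11.7%), and DESeq2 called 2 and 2 at an adjusted p under 0.05 (7.76% and 6.24% of the genes it gave one). The chain that passed was Col22a1, a fibril-associated chain of tissue junctions, at 2.59 and 1.28 CPM in WT SSC, 9.24 and 3.45 in WT pBCSP, while WT BCSP had 15.7 and 5.90. In the libraries labelled Mettl3cko it was at 5.87 and 6.48 CPM in SSC, 15 and 22.9 in pBCSP, while BCSP had 25 and 16.8. It was higher than both WT libraries of the same population in each, by 1.41 ± 0.33 on the log2 scale (SE, 12 libraries, adjusted p = 0.0255). The call was lost when the second WT input library of SSC, of pBCSP or of BCSP, the second Mettl3cko library of SSC or the first of BCSP was left out (adjusted p of 0.0597 to 0.0955), and in 1 fit over all 44 libraries (adjusted p = 0.401).

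Col2a1, Col1a1 and Col10a1 did not pass on average. Col2a1 was at 88268 and 44604 CPM in SSC labelled Mettl3cko, 49748 and 39757 in pBCSP and 79543 and 62564 in BCSP, which overlapped WT in SSC and BCSP and lay below it in pBCSP (mean difference -0.33 ± 0.15, adjusted p = 0.223). Col1a1 was at 8048 and 3012, 11082 and 13545, and 16464 and 10542 CPM, overlapping WT in SSC and lying above it in BCSP (1.02 ± 0.26). In pBCSP its lower library lay just above WT, with a log2 difference of 0.17 ± 0.20. The mean difference of Col1a1 was 0.46 ± 0.21 (adjusted p = 0.205 by edgeR). Col10a1 was at 200 and 114, 3.26 and 0.677, and 657 and 1301 CPM, overlapping WT in all 3 populations (0.18 ± 0.37, adjusted p = 0.863). Col15a1 was at 17.0 and 16.3, 20.4 and 31.3, and 27.5 and 24.4 CPM, against 23.8 and 23.0, 69.4 and 71.3, and 15.8 and 28.2 in WT (-0.56 ± 0.17, adjusted p = 0.0748). Col1a1 relative to Col1a2, per kb, was 1.81 and 1.5 in SSC labelled Mettl3cko against 1.19 and 1.26 in WT, and 2.63 and 2.32 against 1.64 and 1.7 in BCSP, without overlap, while in pBCSP it was 2.49 and 2.83 against 2.66 and 2.64. Col2a1 relative to Col1a1 was 12.7 and 17.2 against 17.6 and 19.5 in SSC, 5.22 and 3.41 against 7.51 and 7.93 in pBCSP, and 5.61 and 6.9 against 12.9 and 13.8 in BCSP, below WT in each. These ratios were not tested.

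Within single populations 0 chains passed at an adjusted p under 0.05, as did 0 of all genes, by edgeR on 4 libraries each. With 0 of all genes called, this does not show that the chains were unchanged. At an unadjusted p under 0.05 there were 3 chains in SSC (14.7% of all genes), 8 in pBCSP (8.36%) and 6 in BCSP (13%), and DESeq2 called 2 at an adjusted p under 0.05 over the 3 populations (2.92% of all genes). By the threshold of the study (log2 difference beyond 0.5 at an unadjusted p under 0.05), in SSC 1 chain was higher, Col22a1 (1.67 ± 0.55), and 2 lower, Col18a1 (-1.42) and Col24a1 (-1.02), where 7.01% of all genes were higher and 7.01% lower. In pBCSP Col6a6 (1.87) and Col22a1 (1.60) were higher (3.88% of all genes) and Col15a1 (-1.43 ± 0.29), Col8a2 (-1.40), Col16a1 (-0.79), Col2a1 (-0.70 ± 0.21), Col9a2 (-0.64) and Col9a1 (-0.62) lower (4.47%). In BCSP Col5a3 (1.30), Col1a1 (1.02 ± 0.26) and Col14a1 (0.82) were higher (7.21%) and Col25a1 (-1.03), Col27a1 (-0.65) and Col11a2 (-0.53) lower (5.69%). Of these 17 calls that of Col15a1 in pBCSP and that of Col1a1 in BCSP were kept without any one library, and each of the other 15 was lost without at least 1 of its 4 libraries, that of Col2a1 without either WT library and that of Col22a1 in SSC without the second WT library. The difference between the genotypes did not differ between populations for any chain at an adjusted p under 0.05 by edgeR (0 of 42, and 0% of all genes), with 4 chains at an unadjusted p under 0.05 (4.5% of all genes). Red cell markers summed to 9.63 to 51.3 CPM in the libraries labelled Mettl3cko, above the 0.789 to 5.83 of WT, with 3 of the 5 tested higher (Hbb-bs, Hba-a2 and Hba-a1), and tendon and fibroblast markers to 269 and 253 in BCSP against 134 and 128 in WT, 383 and 377 in pBCSP against 266 and 233, and 67 and 56.6 in SSC against 107 and 106. Of the latter list Pi16 and Clec3b, 2 of 6, were higher in the mean of the populations at an adjusted p under 0.05 by edgeR. The part of either list in the collagen values was not tested.

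**Figure D4:**
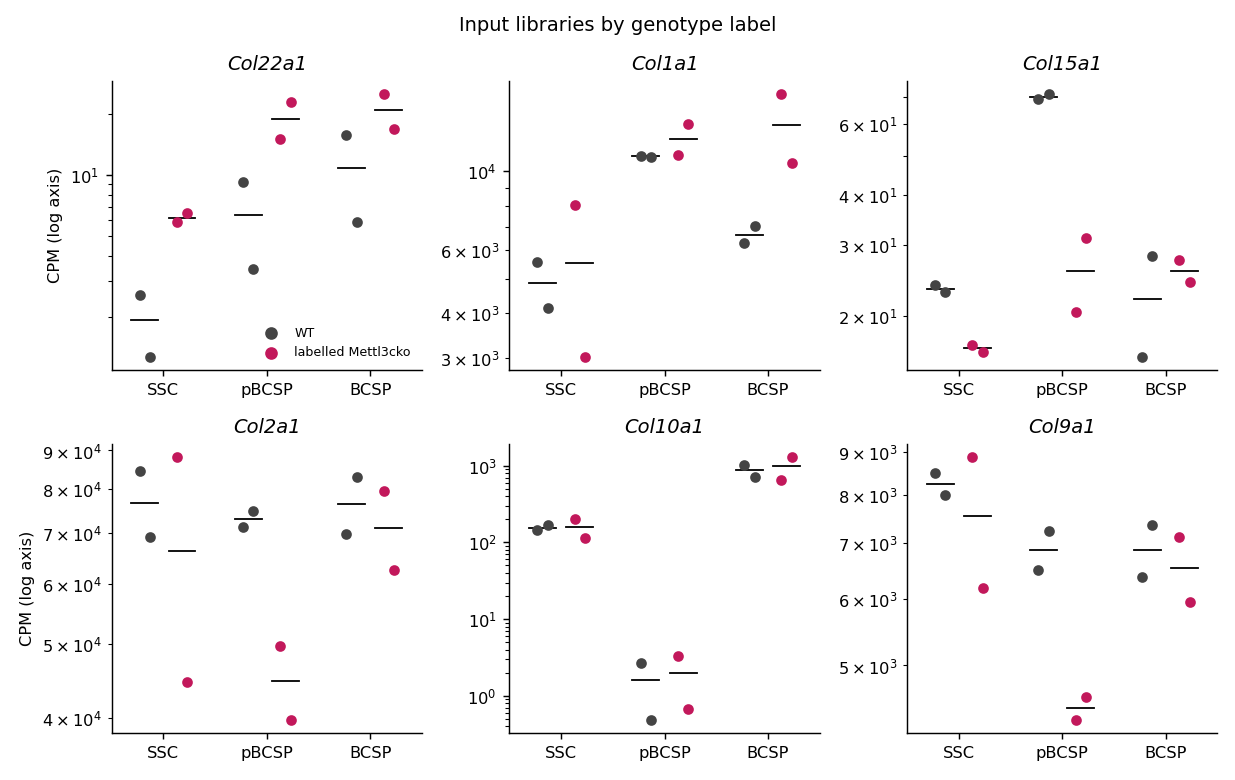
CPM of collagen chains in the input libraries of SSC, pBCSP and BCSP, WT beside Mettl3cko, 1 point per library on a log axis. Bars are the means of 2 libraries. The ranges of the genotypes overlap for Col10a1 in all 3 populations, and Col2a1 of the libraries labelled Mettl3cko lies below WT in pBCSP at 49748 and 39757 CPM.

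Of the genes that process collagen, averaged over the 3 populations, Serpinh1 was higher and Sparc lower among 7 for folding and export, Plod2 lower among 17 for modification, Loxl4 and Loxl2 lower among 13 for cleavage and cross-linking, Ddr1 and Itga11 lower among 7 receptors, and none of 6 lineage factors passed at an adjusted p under 0.05.

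The ratio of IP to input differed between the genotypes for few chains, and in both directions. Averaged over the 3 populations 2 of 42 chains were higher in the libraries labelled Mettl3cko (0.644% of all genes were) and 2 lower (3.3% of all genes were) by edgeR at an adjusted p under 0.05. At an unadjusted p under 0.05 there were 6 higher (3.58% of all genes) and 5 lower (13.4%). The median log2 difference was 0.28 over the chains and -0.39 over all genes, and the share of genes without an IP read was 32.5% to 41.1% in the IP libraries labelled Mettl3cko against 15.5% to 24.6% in WT. A loss of m6A that is the same for all genes would not show in such a ratio, which is relative to each library's total. Replicates of the IP libraries labelled Mettl3cko also correlated less, at 0.654 to 0.756, than those of WT SSC, pBCSP and BCSP, at 0.913 to 0.943. How far this or the share without an IP read moves these values was not tested.

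Col9a3, of collagen IX, was the chain with the lowest p among those that were higher. Its log2 ratio was -1.33 and -1.61 in WT SSC, -1.46 and -1.41 in WT pBCSP, while WT BCSP had -0.75 and -0.99. In the libraries labelled Mettl3cko it was 0.01 and 0.03, 0.29 and -0.41, and -0.58 and -0.55. The genotypes did not overlap within any population, and the mean difference was 1.02 ± 0.18 (adjusted p = 0.00444 by edgeR). Col6a2 was at 0.12 and -0.34, 0.12 and 0.14, and 0.15 and 0.01 in WT against 0.90 and 1.26, 1.06 and 0.97, and 0.85 and 0.64, again without overlap (0.89 ± 0.22, adjusted p = 0.0294). Col9a3 passed without any one library. Col6a2 was lost (adjusted p of 0.0535 to 0.0848) without the second WT input library of SSC, pBCSP or BCSP, the first WT IP library of pBCSP or BCSP or the second of SSC, and the second Mettl3cko input library of SSC or the first of pBCSP or BCSP. With IP and input paired by replicate 3 chains were higher (0.462% of all genes were), Col9a3 (1.03, adjusted p = 0.00456), Col6a2 (0.89, adjusted p = 0.00925) and Col9a2 (0.70, adjusted p = 0.0307). Col9a3 overlaps Tcfl5 by 234 exonic bases on the opposite strand, and whether the counting used strand is not given in the sources used here.

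The chains that were lower were both of collagen IV and had few IP reads. Col4a6 had 54 to 180 IP counts in the 6 WT libraries and 0 in 5 of the 6 labelled Mettl3cko, with 8 in the first SSC library, while its input counts there were 4 to 88 (adjusted p = 0.0189 by edgeR). Col4a5 had 123 to 550 IP counts in WT and 0, 1, 40, 51, 121 and 200 in the libraries labelled Mettl3cko, with 59 to 360 input counts (adjusted p = 0.0254). With IP and input paired by replicate 0 chains were lower (0.556% of all genes were), at an adjusted p of 0.123 for Col4a6 and 0.132 for Col4a5. Without the pairing Col4a6 was lost without either WT input library of SSC or pBCSP or the first of BCSP (0.0535 to 0.0672), and Col4a5 without any WT input library, the second WT IP library of pBCSP or BCSP, the first Mettl3cko input library of SSC or the second of pBCSP (0.0511 to 0.0766).

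Within single populations 0 chains passed at an adjusted p under 0.05 in any of the 3, nor did any other gene, by edgeR on 8 libraries each, while DESeq2 called 11 over the 3 populations (7.48% of all genes). At an unadjusted p under 0.05 the ratio was higher for 4 chains and lower for 2 in SSC (3.26% and 11.4% of all genes), 7 and 5 in pBCSP (2.07% and 9.83%) and 0 and 2 in BCSP (2.5% and 7.83%). Col9a3 was at 1.5 ± 0.33 in SSC, 1.26 ± 0.36 in pBCSP and 0.30 ± 0.31 in BCSP, Col9a2 at 1.14 ± 0.46 in SSC and 1.04 ± 0.29 in pBCSP, and Col16a1 at 1.38 ± 0.49 and 1.07 ± 0.37. Col1a1, Col15a1, Col11a2 and Col20a1 were higher in pBCSP and Col6a2 in SSC. With IP and input paired the 3 populations gave 17 higher and 5 lower in place of 11 and 9, where 1.94% and 4.94% of all genes were higher and lower in SSC, 1.81% and 6.48% in pBCSP, while BCSP had 2.34% and 4.04%. Averaged over the 3 populations, at an adjusted p under 0.05 by edgeR, the receptor Itga2 was lower among the genes that process collagen, and none of the 17 for modification, 13 for cleavage and cross-linking, 7 for folding and export and 6 lineage factors passed. In the same average 3 of the 7 chondrocyte markers were higher, Matn1 (1.13), Comp (1.11) and Acan (0.83).

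**Figure D5:**
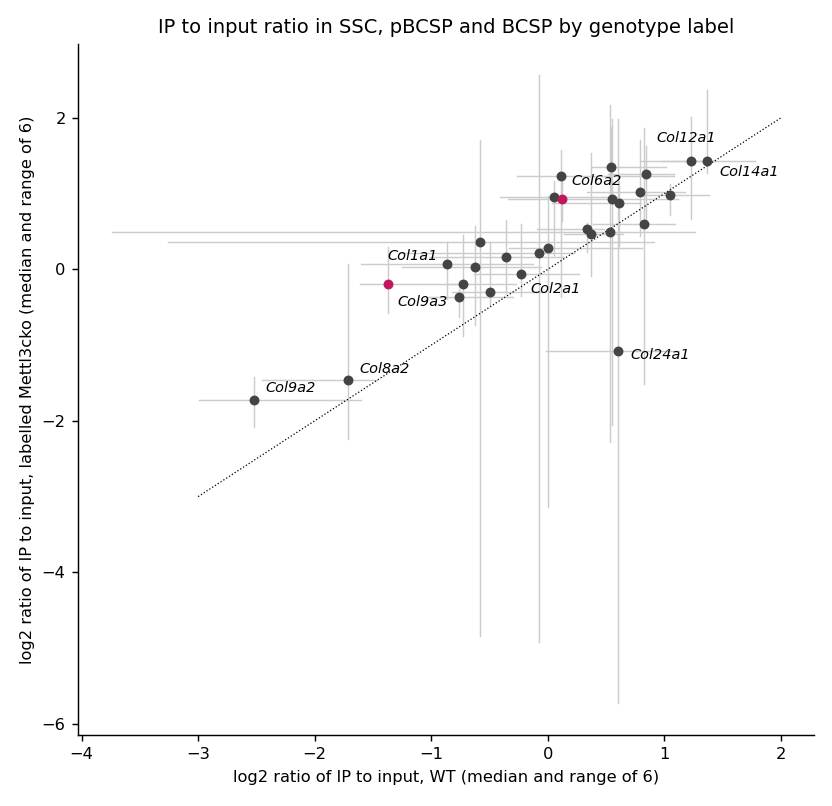
Log2 ratio of IP to input of the 29 chains of at least 10 CPM in SSC, pBCSP and BCSP, WT on the horizontal and libraries labelled Mettl3cko on the vertical axis, as the median of 6 replicates with lines for their range, and the dotted line marks equal values. The coloured points are Col9a3 and Col6a2, which lie above the line with mean differences of 1.02 and 0.89.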

How the data were processed

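RNA of 44 libraries was sequenced by the authors, who trimmed reads with fastp 0.20.1, aligned them with HISAT2 2.2.1 to GRCm38 and counted them per gene with featureCounts 2.0.1. The deposited table holds raw counts per gene, and the annotation and strand setting of the counting are not given in the sources used here. Of 46959 entries 128 with repeated date names were left out (at most 0.390% of a library's counts).

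Groups came from the labels. Counts were tested with edgeR 4.0.16 (quasi-likelihood F-test, TMM, filterByExpr, Benjamini-Hochberg over all genes tested) in R 4.3.3, with a threshold of 0.05, and DESeq2 1.42.0 served as an alternative. Ratios per replicate are log2 of IP over input CPM with a prior count of 2. Levels per kb use the transcript with the longest coding sequence (GENCODE for GRCm38). The members, lists and tests were chosen with earlier results of these data known. Named were the members, those with the largest changes of each comparison, and up to 4 genes of each pathway list in each direction. No pair of replicates agreed within counting error (lowest chi-square over its degrees of freedom 25.9). IP and input of a number share a sort according to the study; the correlation of their deviations was 0.0437 to 0.483 over 11 conditions. WT and Mettl3cko numbers do not pair (-0.05 to 0.05). Alternatives were other scalings, no filter on low counts, a replicate block, 1 fit over all 44 libraries, DESeq2 and leaving out each library, where the genes and dispersion trend of the full fit were kept. The tests were checked on simulated counts.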

Additional observations from a re-analysis of the deposited data

How the results depend on the processing

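No chain that was called and followed by name changed its sign under any alternative. Changes of sign in chains that were not called were not counted as reversals. Counts under an alternative are of the chains alone, unless the results above give the share of all genes beside them. Alone, such counts do not show whether the chains moved apart from other genes. The counts of chains across the 8 populations, in stem and progenitor against downstream cells, in the mean ratio of IP to input and in the ratio within populations stayed within 1.5 times of the values given. Without the filter on low counts the pairs among SSC, pBCSP and BCSP gave 30 calls in place of 9, the difference in ratio between populations 10 in place of 0, the genotypes within populations 4 in place of 0 at an adjusted p and 12 in place of 6 higher at the threshold of the study, their mean 3 higher in place of 1 and 4 lower in place of 0, and the ratio between genotypes 7 higher in place of 2 on average and 5 in place of 0 within populations. DESeq2's Wald test gave for the same counts 21 pairs, 2 genotype calls, 11 higher, 2 higher and 2 lower on average, and for the ratio 4 higher and 5 lower on average and 11 within populations. One fit over all 44 libraries gave 0 higher chains in the mean of the genotypes, and for the ratio 6 higher and 5 lower on average, and within populations 7 at an adjusted p and 17 higher and 16 lower at an unadjusted p. The replicate block, which pairs IP with input, gave 10 chains for the difference in ratio between populations, 0 lower chains in the mean ratio between genotypes, and 17 higher and 5 lower within populations; it moved no other count by over 1.5 times. Deviations of same-numbered WT input libraries correlated at 0.177 to 0.338 among SSC, pBCSP and BCSP but at -0.441 to 0.338 over all 28 pairs of populations, so the numbers were not taken as pairs there, and that block gave 10 pair calls in place of 9, adding Col14a1.

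Leaving out 1 library at a time gave 5 (without the second pBCSP library) to 16 (without the second BCSP library) pair calls, 0 to 4 for the difference in ratio between populations, 0 to 6 for the genotypes within populations, 5 to 10 higher and 6 to 18 lower at the threshold of the study, and 0 to 1 higher and 0 to 4 lower in their mean. For the ratio between genotypes it gave 1 to 5 higher and 0 to 4 lower on average, and within populations 0 to 8 at an adjusted p and 7 to 15 higher and 7 to 15 lower at an unadjusted p. The most genotype calls came without the second pBCSP input library labelled Mettl3cko. With DESeq2's size factors the median gene moved from -0.03 to 0.13 in the log2 IP to input ratio, in the stem comparison from -0.11 to -0.52 without the filter and to -0.21 by library size alone, and in the ratio between genotypes from -0.39 to -0.74 with the block. The causes were not tested. The alternatives for the pairs of populations were chosen after the data were seen.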
